A study of Arabidopsis thaliana with 21 samples.

Results

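The members are 46 gene models of Arabidopsis thaliana that lie in a piece of mitochondrial DNA inserted in chromosome 2. They were chosen by locus number alone. Every model from AT2G07667 to AT2G07835 whose number does not end in 0 was taken, which gave 46 of the 26496 models with a read in any library. RNA was sequenced from hand-dissected embryos at the late heart stage, in 21 libraries of 7 genotypes with 3 replicates each. The mutants asil1-1, asil2-1 and asil1-1 asil2-1 are in ecotype Columbia-0, the mutant asil1-1 asil2-2 is labelled as a mixture of Columbia-0 and Landsberg erecta, and asil2-2 is in Landsberg erecta. The wild types are Ler (Landsberg erecta) and Col-0 (Columbia-0). The genes ASIL1 and ASIL2 encode trihelix transcription factors that repress seed maturation genes. What lesion each allele carries is not stated in the labels. Nothing says whether replicates came from separate plants, so p-values measure only the spread between these samples. In such bulk RNA, fewer cells of a type and less RNA per cell cannot be told apart.

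Plant nuclear genomes take up pieces of organelle DNA, and the insertion near the centromere of Arabidopsis chromosome 2 is a well-known large one. A mitochondrial genome encodes subunits of the respiratory chain and of the ATP synthase, proteins that mature cytochrome c, and ribosomal proteins. Copies of such genes moved to the nucleus usually lack promoters that the nuclear RNA polymerases use, and their RNA cannot be told from that of the mitochondrion where the sequences are identical.

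In TAIR10.1, the run of 50-base windows that also occur in the mitochondrial genome extends from base 3239038 to base 3509765 of chromosome 2. That is 270728 bases, set against a mitochondrial genome of 367808 bases, which the reference gives for ecotype Col-0. The median 5 kb piece of the run had 96.0% of its windows in the mitochondrial genome, and no piece outside it had more than 0.7%. All 46 members lie inside. Over their exons, 97.1% of windows occurred exactly in the mitochondrial genome, and 2.7% occurred nowhere else in either genome. Every exon window of 24 members was also mitochondrial, and 25 members had no window of their own. The lowest share was 83.8%, in AT2G07676, an uncharacterized protein.

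The start of 4 coding sequences is shown because the results turn on these loci and because 90 bases of each are the same in both genomes. Capitals mark the start codon. AT2G07667 encodes an uncharacterized protein and lies on the plus strand of chromosome 2 at chr2:3364539-3364628. AT2G07739 is annotated as a Ycf1 protein, on the minus strand at chr2:3496021-3496110. AT2G07671 is annotated as a member of the ATP synthase subunit C family, on the minus strand at chr2:3252024-3252113. AT2G07687 encodes subunit III of cytochrome c oxidase, the last complex of the respiratory chain, on the minus strand at chr2:3312562-3312651.
AT2G07667: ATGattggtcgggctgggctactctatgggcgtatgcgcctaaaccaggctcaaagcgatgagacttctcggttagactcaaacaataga
AT2G07739: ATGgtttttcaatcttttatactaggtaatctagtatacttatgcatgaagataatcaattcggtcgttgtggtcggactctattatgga
AT2G07671: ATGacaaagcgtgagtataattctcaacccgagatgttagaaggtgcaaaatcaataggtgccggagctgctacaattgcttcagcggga
AT2G07687: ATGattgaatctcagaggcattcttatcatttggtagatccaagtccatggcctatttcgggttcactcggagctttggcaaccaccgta

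Where the genomes differ, the difference is often a single base. Over the run, 169 single-base differences stood alone with 50 matching bases on either side. In 96 of them, 56.8%, a mitochondrial C was a T, or a G was an A, on chromosome 2. The opposite transition made up 14, and 59 were transversions. The stretches around 3 of these are shown for members with high counts, on the strand of the gene and with the differing base in capitals. Positions are counted from 1 at the 5′ end of the gene, and the mitochondrial base comes first. They are C484T in AT2G07785, annotated in the NADH dehydrogenase family, G492A in AT2G07674 and G134T in AT2G07708, both uncharacterized.
AT2G07785: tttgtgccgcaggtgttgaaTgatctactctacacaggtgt
AT2G07785 in the mitochondrial genome: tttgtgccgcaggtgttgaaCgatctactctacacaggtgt
AT2G07674: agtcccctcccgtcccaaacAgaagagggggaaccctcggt
AT2G07674 in the mitochondrial genome: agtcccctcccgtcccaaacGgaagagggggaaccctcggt
AT2G07708: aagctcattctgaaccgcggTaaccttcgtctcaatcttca
AT2G07708 in the mitochondrial genome: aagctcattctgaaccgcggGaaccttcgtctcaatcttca

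Libraries held 1.49 to 8.19 M counts (1 M is 1000000). The locus AT5G18610 took 45.7% of the counts of asil1-1 asil2-1 replicate 1, and asil1-1 asil2-2 replicate 2 was the shallowest library. These 2 libraries stand apart, with median correlations of log2 CPM with the others of 0.83 and 0.934 across genes, against 0.973 to 0.986 for the other 19. Where the number of members that passed a test changed without them, that number is also given. Counts of members whose libraries do not overlap keep all libraries of the compared groups. All 11 embryo markers, among them LEC1 and FUS3, 6 endosperm markers and 7 seed coat markers had reads, and 1 endosperm marker averaged under 1 CPM. Their summed levels over the libraries were 819 to 1974 CPM for embryo, 17.8 to 84.7 CPM for endosperm and 125 to 372 CPM for seed coat, where CPM is counts per M counts with TMM-scaled library sizes. The endosperm markers summed to 17.8 to 33.2 CPM in Ler and 26.9 to 37.4 CPM in asil2-2, against 40.9 to 60.3 CPM in Col-0 and 40.8 to 74.8 CPM in asil2-1. The embryo markers summed to 1645 to 1819 CPM in Ler, against 1459 to 1600 CPM in Col-0, and overlapped between asil2-2 and asil2-1. The seed coat markers summed to 125 to 210 CPM in asil2-2, against 232 to 243 CPM in asil2-1, and overlapped between Ler and Col-0. Their part in the results between ecotypes was not tested.

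The members together took 0.323% to 0.548% of a library's counts, and each library had reads of 41 to 44 of the 46. A filter on low counts left 43 members among 18269 tested models. Mean levels over the 21 libraries ran from 532 CPM in AT2G07708 to 3.64 CPM in AT2G07705, with a median of 44.0 CPM. Of the 43, 12 were over 100 CPM, 19 lay between 20 and 100 CPM and 12 were under 20 CPM. The 5 highest members held 39.6% to 52.6% of all member counts.

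AT2G07727, annotated as cytochrome b of complex III, averaged 396 CPM over 21 libraries, and AT2G07687, cytochrome c oxidase subunit III, 338 CPM. AT2G07671, of the proton-conducting ring of the ATP synthase, averaged 334 CPM, and AT2G07698, its catalytic-head alpha subunit, 319 CPM. AT2G07785, of the NADH dehydrogenase family (complex I), averaged 237 CPM. Among genes of ribosomal proteins, AT2G07715, whose exon windows lie mostly in the mitochondrial rpl2 gene, averaged 258 CPM, AT2G07725 of the L5 family 248 CPM, and AT2G07734 of the S4 family 184 CPM. The other members over 100 CPM, AT2G07708, AT2G07738, AT2G07787 and AT2G07674, are uncharacterized.

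Per length the order differed. Divided by exon length in TAIR10.1, AT2G07671 was first with 430.8 CPM per kb. AT2G07738 with 418.9 CPM per kb and AT2G07708 with 406.3 CPM per kb came close behind it, while AT2G07727, a long model, had 122.0 CPM per kb. The lowest of the 43 was AT2G07739, with 4.7 CPM per kb, and the median was 36.7 CPM per kb.

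The highest members were compared between the wild types. AT2G07708 measured 591, 539 and 582 CPM in Ler, against 538, 514 and 539 CPM in Col-0. AT2G07727 measured 410, 419 and 436 CPM in Ler, against 404, 405 and 407 CPM in Col-0. AT2G07698 measured 323, 331 and 327 CPM in Ler, against 318, 302 and 314 CPM in Col-0. In these 3 members, which differed by 0.06 to 0.11 on the log2 scale, every Ler library lay above every Col-0 library, by amounts that did not pass the test.

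AT2G07687 measured 243, 253 and 278 CPM in Ler, against 269, 296 and 251 CPM in Col-0, and these ranges overlapped. AT2G07715 measured 304, 260 and 261 CPM in Ler, against 256, 241 and 251 CPM in Col-0. AT2G07725 measured 231, 228 and 234 CPM in Ler, against 267, 271 and 256 CPM in Col-0. AT2G07785 measured 279, 285 and 273 CPM in Ler, against 219, 219 and 235 CPM in Col-0. Ler was thus above Col-0 in both AT2G07715 and AT2G07785 and below it in AT2G07725, in every library. None of the 3 passed the test in the main fit. AT2G07785 did pass as higher in Ler with DESeq2, with only the compared groups, and without the 2 libraries that stand apart. AT2G07787 measured 176, 141 and 157 CPM in Ler, against 201, 191 and 204 CPM in Col-0. Every Ler library was again lower, with no pass in the main fit. AT2G07787 passed with only the compared groups and without the 2 libraries that stand apart. AT2G07738 measured 138, 180 and 164 CPM in Ler, against 169, 207 and 189 CPM in Col-0. AT2G07674 measured 147, 125 and 127 CPM in Ler, against 145, 131 and 130 CPM in Col-0. Both of these overlapped.

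The libraries that stand apart showed in single members. AT2G07687 reached 1059 CPM in asil1-1 asil2-1 replicate 1 and 610 CPM in asil1-1 asil2-2 replicate 2, against 223 to 402 CPM in the other 19 libraries. In the first of these libraries AT2G07727 was at its lowest, 203 CPM, and AT2G07698 at 167 CPM.

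**Figure D1:**
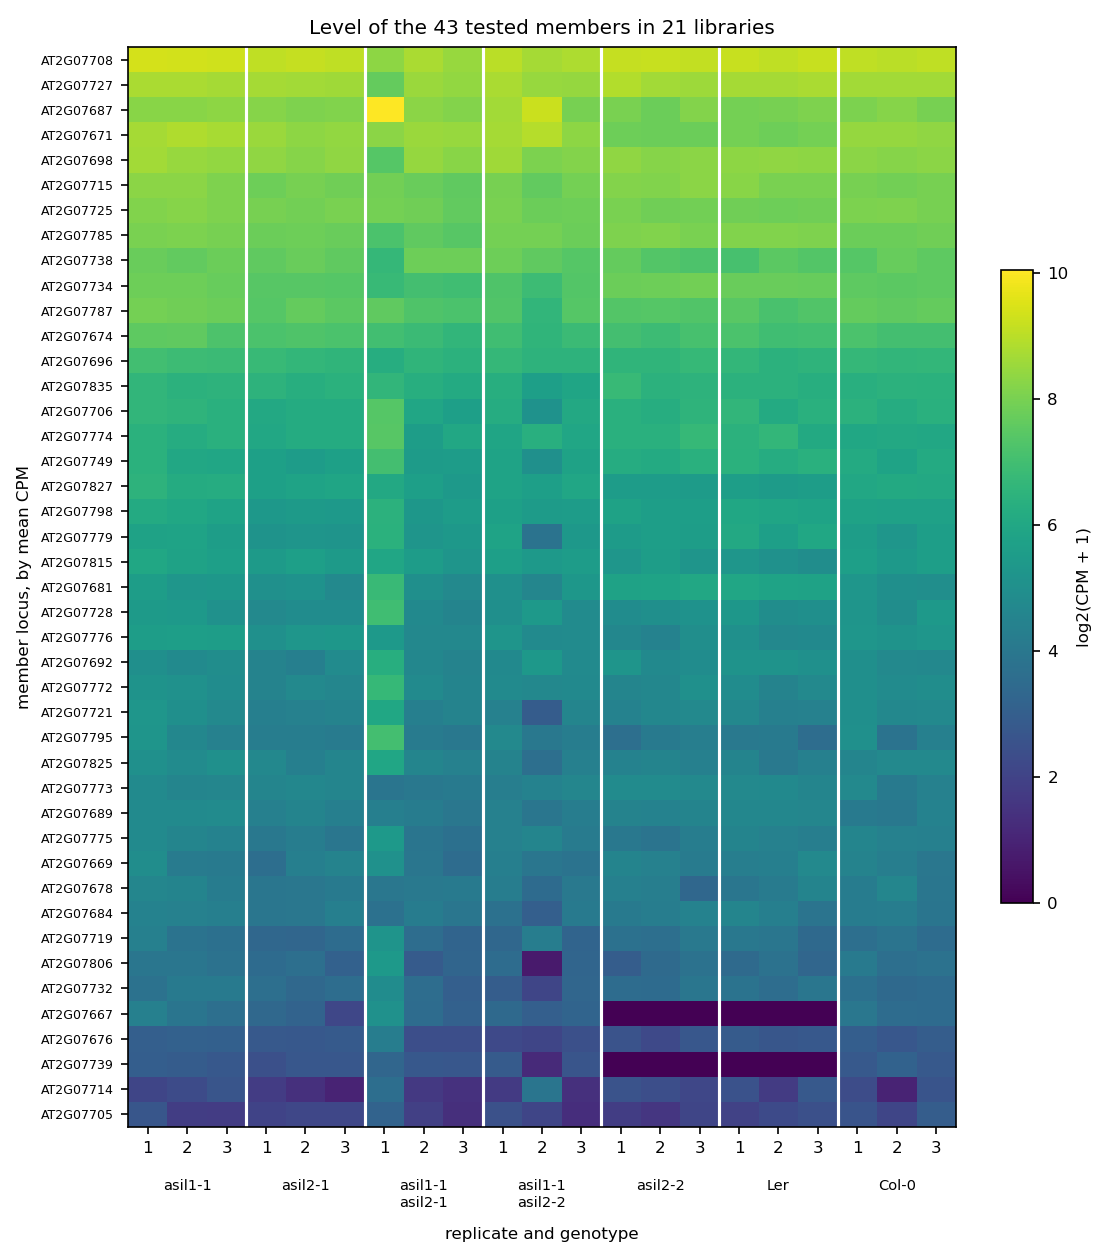
Level of each of the 43 tested members (rows, ordered by mean CPM) in each of the 21 libraries (columns, 3 replicates per genotype), as log2(CPM + 1) in colour. AT2G07667 and AT2G07739 are dark, at 0, in the 6 libraries of asil2-2 and Ler, and asil1-1 asil2-1 replicate 1 stands out in many rows.

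The levels were next set beside those of the mitochondrial loci, whose names begin with ATMG. The 93 ATMG loci took 2.94% to 6.12% of a library's counts. For every 100 ATMG counts, members had 7.92, 7.52 and 7.73 counts in Ler, against 9.24, 8.94 and 9.31 in Col-0. They had 7.53, 8.08 and 7.72 in asil2-2, against 8.91, 8.35 and 9.19 in asil2-1. The 6 Landsberg erecta libraries thus spanned 7.52 to 8.08, and the 12 Columbia-0 libraries 8.02 to 10.99, with an overlap in 1 library of each ecotype. The highest of these, 10.99, and the lowest of all, 6.79, were the libraries that stand apart. A sum over loci was not tested.

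**Figure D2:**
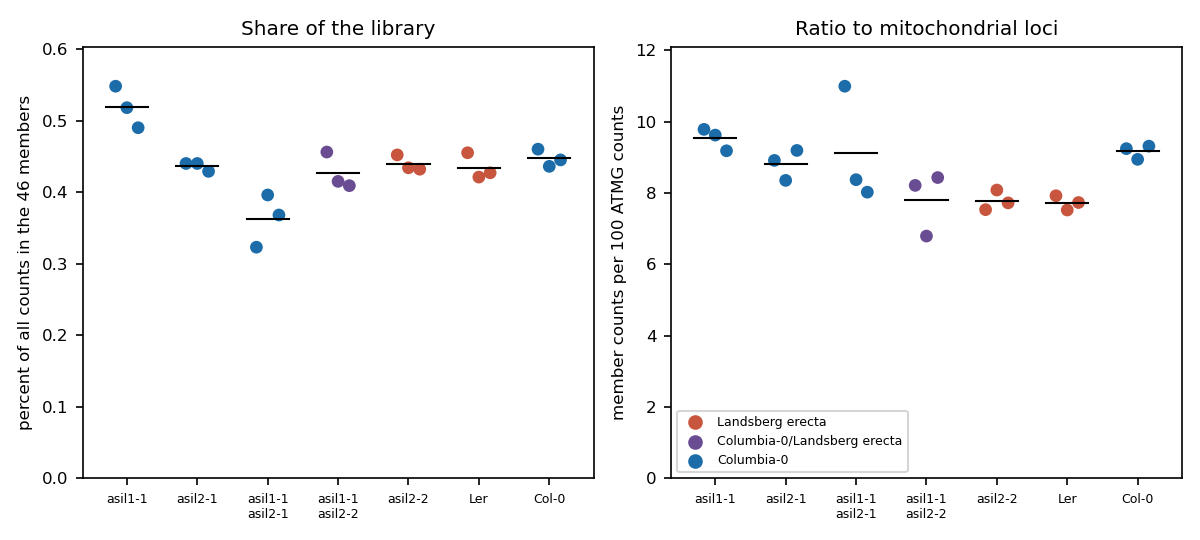
Left, percent of all counts in the 46 members; right, member counts per 100 counts of ATMG loci. Each point is a library, the line is the mean of 3 replicates and colours give the ecotype; asil1-1 has the highest shares, 0.49% to 0.548%, and the Landsberg erecta libraries have 7.52 to 8.08 on the right.

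The annotation names a best-matching mitochondrial locus for 31 members, and 17 of those loci were listed with counts. Over all libraries together, 10 of the 17 members had more counts than their counterpart and 7 had fewer. The direction was the same in every library for 11 pairs, above in 7 and below in 4. AT2G07698 had 511 to 904 counts per 100 counts of ATMG01190, ATP synthase subunit 1, in the 19 libraries that do not stand apart. In the same 19 libraries AT2G07715 had 180 to 244 per 100 of ATMG00560. AT2G07687 had 34.6 to 50.9 per 100 of ATMG00730, cytochrome c oxidase subunit 3, AT2G07671 had 21.7 to 41 per 100 of ATMG01080, the F0-ATPase subunit 9, and AT2G07689, of the NADH dehydrogenase 2 gene, had 7.61 to 10.5 per 100 of ATMG01320. The pairs therefore sat at very different ratios although nearly all member windows occur in the TAIR10.1 mitochondrial genome. Which mitochondrial sequence the submitters mapped to is not stated, so that identity may not hold for the sequence behind the counts. How reads that fit both genomes were assigned is not stated in the labels, and the lengths of the ATMG models are not known, so level and counting rule cannot be told apart in these ratios.

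The ratio moved in the 2 libraries that stand apart. AT2G07687 had 2714 counts against 865 of ATMG00730 in asil1-1 asil2-1 replicate 1, which is 314 per 100, and 927 against 892 in asil1-1 asil2-2 replicate 2. In the first library AT2G07835 also reached 210 per 100 of ATMG00400, against 61.4 to 84.6 in the other libraries, and AT2G07715 reached 478 per 100 of ATMG00560. AT2G07671 went the other way in that library, at 14.8 per 100 of ATMG01080.

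**Figure D3:**
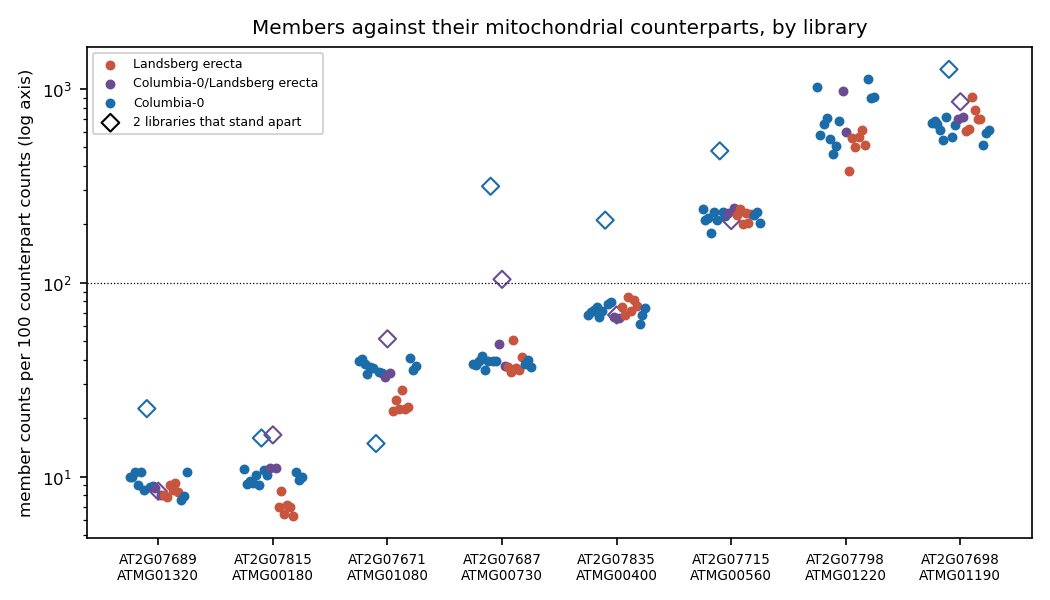
Member counts per 100 counts of the mitochondrial counterpart (log axis) for the 8 pairs with at least 20 counts in both loci in at least 19 libraries. Each mark is a library, coloured by ecotype, and open diamonds are the 2 libraries that stand apart; in AT2G07671 and AT2G07815 the Landsberg erecta libraries lie below the Columbia-0 libraries other than those diamonds.

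The clearest differences were between the ecotypes. In Ler against Col-0, 4 of the 43 members fell and none rose, at a Benjamini-Hochberg adjusted p under 0.05 in edgeR's quasi-likelihood test. Of all 18269 models, 4.96% passed, 1.57% higher and 3.4% lower, against 9.3% of the members. DESeq2 called 1 rise, AT2G07785, and 4 falls, against 1268 models called. Without the 2 libraries that stand apart, which are in neither group but enter the fit, 4 members rose and 6 fell in edgeR's test. In 13 members every Ler library lay above every Col-0 library, 30.2%, against 14.5% of all models and 23.9% of ATMG loci. In 10 members every Ler library lay below, 23.3%, against 15.9% of all models and 17.4% of ATMG loci. The members' median log2 fold change was -0.02, against -0.01 over all models. Among 92 tested ATMG loci, 5 rose and 5 fell, with a median of 0.00.

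AT2G07667 had no read in any of the 6 Landsberg erecta libraries. It had 67, 62 and 48 counts in Col-0, which are 14.8, 10.6 and 10.3 CPM, and 9.60, 8.28 and 3.35 CPM in asil2-1. With 3 counts over the group as the floor, Ler was at least 61.9-fold lower than Col-0, with an adjusted p of 3.48e-05 in edgeR's test. In asil2-2 the level was at least 51.1-fold lower than in asil2-1, with an adjusted p of 7.19e-05. Its mitochondrial counterpart ATMG01180, an unknown protein, followed the same pattern. ATMG01180 had 0 counts in Ler and 1, 0 and 0 in asil2-2, against 12, 20 and 21 in Col-0 and 16, 7 and 12 in asil2-1.

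AT2G07739 also had no read in the 6 Landsberg erecta libraries. It had 27, 46 and 28 counts in Col-0, which are 5.98, 7.84 and 5.99 CPM, and 4.49, 5.66 and 5.70 CPM in asil2-1. Ler was at least 35.3-fold lower than Col-0, with an adjusted p of 8.75e-06, and asil2-2 at least 37.8-fold lower than asil2-1, with an adjusted p of 7.07e-06, both in edgeR's test. Its counterpart ATMG00370 had 36, 35 and 19 counts in Ler and 27, 27 and 21 in asil2-2, against 0 in every Col-0 and asil2-1 library. Ler was at least 28.6-fold higher than Col-0 in ATMG00370. Of the other Columbia-0 libraries, asil1-1 replicate 1 had 2 counts of ATMG00370 beside 41 of AT2G07739, and the rest had 0 of ATMG00370. All 839 windows of AT2G07739 occur in the TAIR10.1 mitochondrial genome, but which mitochondrial sequence the counts used is not stated. Of those windows, 298 also occur in the plastid genome.

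A further pair of counterparts split by ecotype in a way their members did not show, and they were picked out after their values were seen. ATMG00910, an unknown protein, had 45, 26 and 44 counts in Ler and 75, 79 and 57 in asil2-2, against 0 in each Col-0 and asil2-1 library. Its member AT2G07773, annotated as a cytochrome B/B6 protein, measured 25.8, 26 and 23.1 CPM in Ler, against 25.7, 16.7 and 20.5 CPM in Col-0, and these overlap. AT2G07773 shares 566 of its windows with another member, AT2G07681, so their reads are not independent. In all, 1621 of the 1721 windows of AT2G07773 also occur elsewhere on chromosome 2. ATMG01090, annotated as a mitochondrial ATP synthase 9, had 0 counts in Ler and asil2-2, against 83, 72 and 74 in Col-0 and 117, 76 and 98 in asil2-1. Its member AT2G07777 had 1 read in all 21 libraries.

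**Figure D4:**
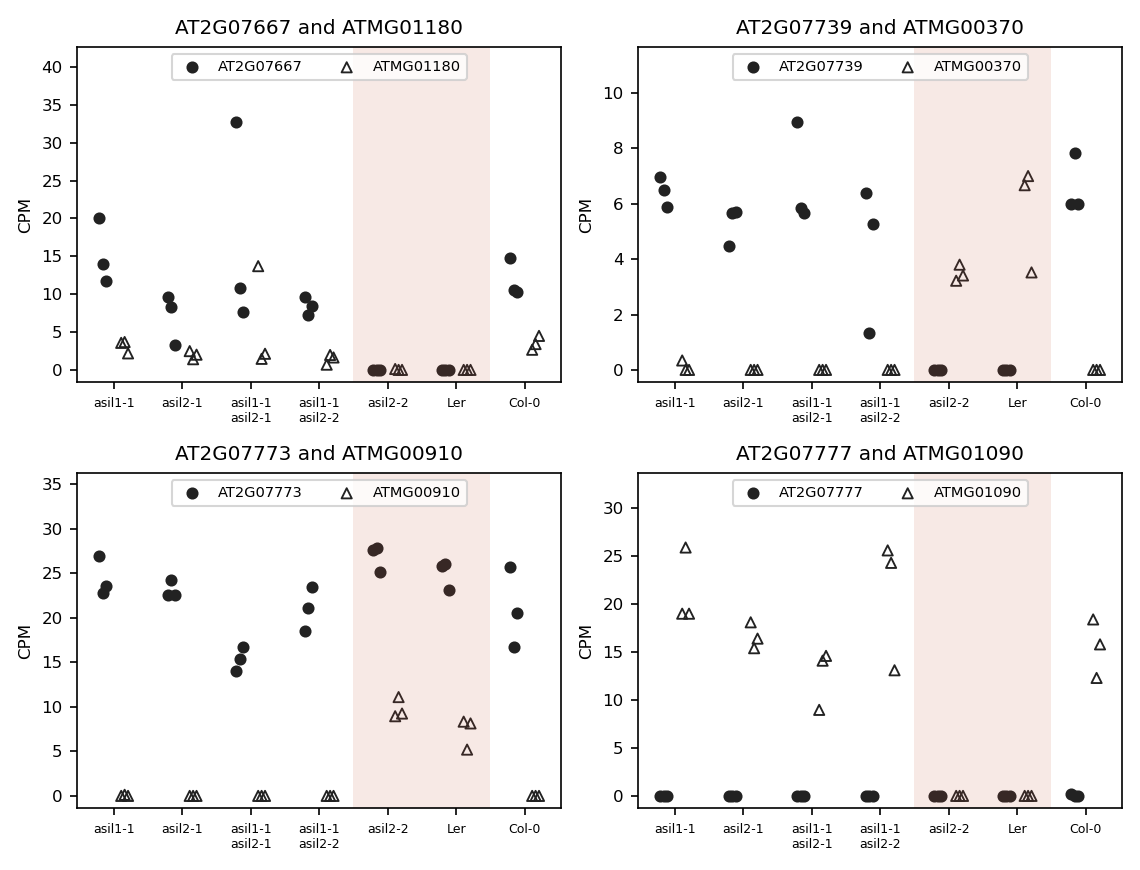
CPM in each library for 4 members (filled circles) and their mitochondrial counterparts (open triangles), by genotype with 3 replicates each; shading marks the Landsberg erecta genotypes asil2-2 and Ler. Both loci of the first pair are near 0 there, ATMG00370 has 19 to 36 counts there and at most 2 elsewhere, ATMG00910 has 26 to 79 counts there and at most 1 elsewhere, and ATMG01090 has 0 counts there.

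AT2G07671, annotated in the ATP synthase ring, has 727 exon windows. Placed at their first match, 30.9% of these lie in the mitochondrial atp9 gene. More than 1 mitochondrial site matches 560 of them, and 304 also occur elsewhere on chromosome 2. AT2G07671 measured 245, 226 and 245 CPM in Ler, against 348, 350 and 330 CPM in Col-0. It measured 228, 222 and 220 CPM in asil2-2, against 367, 325 and 341 CPM in asil2-1. The ecotypes did not overlap in any of the 6 Landsberg erecta and 12 Columbia-0 libraries. It fell by 0.52 ± 0.13 (log2, SE) in Ler, with an adjusted p of 0.019 in edgeR's test, and by 0.63 ± 0.13 in asil2-2 against asil2-1, with an adjusted p of 0.00435. Without any one of Col-0 replicates 1 and 2 or the Ler replicates, the first adjusted p was 0.0615 to 0.126. ATMG01080, its counterpart, overlapped between the ecotypes, with 875, 1012 and 1073 CPM in Ler, against 850, 991 and 889 CPM in Col-0.

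AT2G07827, an uncharacterized protein, measured 48.0, 44.4 and 47.4 CPM in Ler, against 64.7, 67.1 and 66.1 CPM in Col-0. It fell by 0.50 ± 0.14 in Ler, with an adjusted p of 0.0402 in edgeR's test. Leaving out any 1 of the 6 libraries gave an adjusted p of 0.0933 to 0.17. In asil2-2 against asil2-1 it measured 45.5, 46.6 and 44.9 CPM in asil2-2 and 51.7, 56.2 and 59.7 CPM in asil2-1, a log2 difference of -0.29 ± 0.14 that did not pass. The gene span of AT2G07827, introns included, covers AT2G07830 on the other strand. Whether their exons overlap was not tested, and the strand of the reads is not known.

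The comparison of asil2-2 with asil2-1 shares no library with that of Ler with Col-0, but in it the ecotype and the ASIL2 allele cannot be told apart. Here 3 of 43 members fell and none rose, AT2G07667, AT2G07671 and AT2G07739, all among the 4 of Ler, against 4.74% of all models called, 1.61% higher and 3.13% lower. DESeq2 called 2 rises, AT2G07734 and AT2G07785, and 3 falls, against 1180 models called. Without the 2 libraries that stand apart, 5 members rose and 4 fell in edgeR's test. With all libraries, 6 of 92 ATMG loci rose and 4 fell. In 12 members every asil2-2 library lay above every asil2-1 library, 27.9%, against 13.3% of all models and 27.2% of ATMG loci. In 7 members every asil2-2 library lay below, 16.3%, against 14.1% of all models and 10.9% of ATMG loci. Between both comparisons 38 of 43 members had the same sign, 88.4%, against 70.1% of all tested models and 69.6% of ATMG loci. Over the 6 Landsberg erecta and 12 Columbia-0 libraries, 3 members were lower without overlap, 6.98%. Without overlap in either direction were 5.55% of all models and 10.9% of ATMG loci. Members that share reads and RNA are not independent of each other. AT2G07681, a cytochrome c assembly protein, had the largest positive differences among members over 20 CPM in Landsberg erecta, and neither passed. It measured 61, 55.2 and 55.1 CPM in Ler, against 37.9, 31.5 and 30.6 CPM in Col-0, a log2 difference of 0.78 ± 0.34, and 54.7, 56.1 and 63.3 CPM in asil2-2, against 32.1, 33.5 and 25.8 CPM in asil2-1, a difference of 0.93 ± 0.34. It passed in both comparisons without the 2 libraries that stand apart, one of which, asil1-1 asil2-1 replicate 1, had 112 CPM. Of the 1775 windows of AT2G07681, 1522 also occur elsewhere on chromosome 2.

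**Figure D5:**
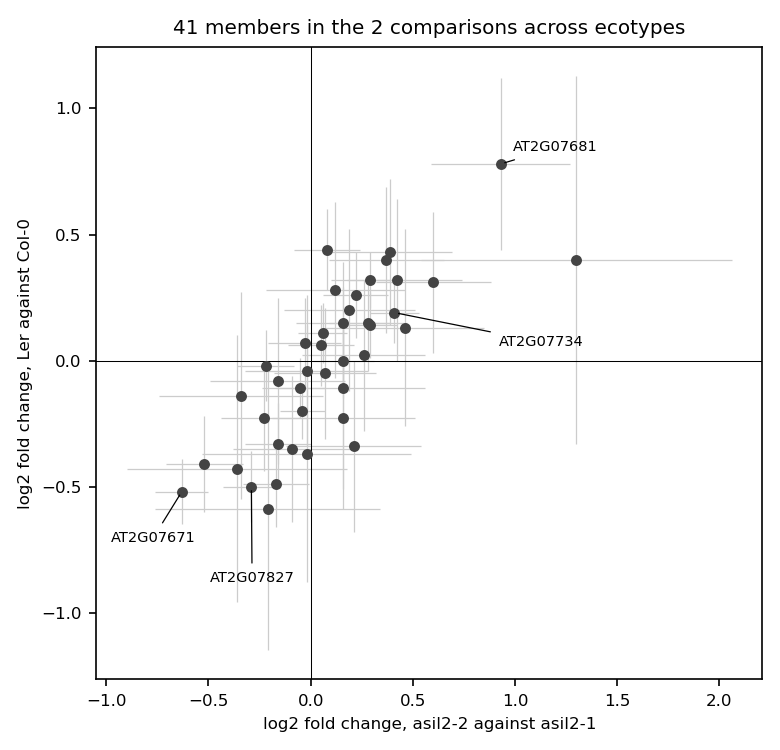
Log2 fold change of 41 members in Ler against Col-0 (vertical) and in asil2-2 against asil2-1 (horizontal), with standard errors as bars; AT2G07667 and AT2G07739, at 0 in Landsberg erecta, are not drawn. Most points lie in the lower left and upper right, with AT2G07671 at -0.52 and -0.63.

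The double mutant asil1-1 asil2-2 is labelled with both ecotypes. In it, members and ATMG loci with almost no reads in 1 ecotype had or lacked reads as in Columbia-0. AT2G07667 had 56, 11 and 51 counts, AT2G07739 had 37, 2 and 32 counts, ATMG00370 and ATMG00910 had 0 counts and ATMG01090 had 148, 37 and 80 counts. ATMG01180 had 4, 3 and 10 counts, against 12, 20 and 21 in Col-0. AT2G07739 was at 1.32 CPM in the shallow replicate 2, below the 4.49 to 8.97 CPM of the Columbia-0 libraries. AT2G07671 measured 418, 486 and 325 CPM in asil1-1 asil2-2, against 245, 226 and 245 CPM in Ler. AT2G07827 measured 56.5, 50 and 60 CPM there, above the 44.4 to 48 CPM of the Landsberg erecta libraries and below the 64.7 to 67.1 CPM of Col-0. All Columbia-0 libraries together, mutants included, spanned 42.6 to 88.2 CPM, a range that holds both the double mutant and Landsberg erecta. Against Ler, 3 members rose and 1 fell, with 2.9% of all models called, 2.16% higher and 0.733% lower. Without the 2 libraries that stand apart, 4 members rose and 3 fell. With all libraries, 5 of 92 ATMG loci rose and 5 fell. In 5 members every asil1-1 asil2-2 library lay above every Ler library, 11.6%, against 11.3% of all models and 9.78% of ATMG loci. In 11 members every asil1-1 asil2-2 library lay below every Ler library, 25.6%, against 12.5% of all models and 30.4% of ATMG loci. All 3 marker lists separated these groups. Embryo markers summed to 933 to 1584 CPM in asil1-1 asil2-2, against 1645 to 1819 CPM in Ler, endosperm markers to 40.6 to 69.8 CPM, against 17.8 to 33.2 CPM in Ler, and seed coat markers to 252 to 372 CPM, against 160 to 227 CPM in Ler. Their part was not tested. AT2G07671 rose by 0.78 ± 0.13, with an adjusted p of 0.0011 in edgeR's test. Without replicate 2 of asil1-1 asil2-2, at 486 CPM, its rise was 0.64, with an adjusted p of 0.00853 in the same test. AT2G07667 and AT2G07739 were at least 46.4-fold and 27.9-fold higher than in Ler, with adjusted p of 0.000224 and 6.54e-05 in edgeR's test.

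AT2G07734, of the ribosomal protein S4 family, was the member that fell against Ler. It measured 155, 116 and 162 CPM in asil1-1 asil2-2, against 216, 214 and 207 CPM in Ler, a fall by 0.55 ± 0.12 with an adjusted p of 0.0147 in edgeR's test. Without replicate 2 of asil1-1 asil2-2 the log2 fold change was -0.42, with an adjusted p of 0.0772, and it did not pass in 6 of 13 alternatives. Against Col-0, at 187, 184 and 189 CPM, the difference was -0.36 ± 0.12 and did not pass. No member passed against Col-0, in edgeR's test, where 2.28% of all models did, 1.26% higher and 1.02% lower. In 14 members every asil1-1 asil2-2 library lay below every Col-0 library, 32.6%, against 11.9% of all models and 15.2% of ATMG loci. In 0 members every asil1-1 asil2-2 library lay above, against 9.61% of all models and 5.43% of ATMG loci. At an unadjusted p under 0.05 there were 3 of 43 members in that comparison, against 2643 of 18269 models, and DESeq2 called 1, AT2G07734, against 806 models. The seed coat markers summed to 252 to 372 CPM in asil1-1 asil2-2, against 184 to 239 CPM in Col-0, and their part was not tested.

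In asil1-1 no member passed the test. In asil1-1 against Col-0, 0 of 43 members passed in edgeR's test and in DESeq2, 7 had an unadjusted p under 0.05, against 453 of 18269 models, and 0.0328% of all models passed the adjusted test, 0.0274% higher and 0.00547% lower. The members' median log2 fold change was 0.23, against 0.00 over all models and 0.26 over ATMG loci. Above 0 were 41 of 43 members, 81 of 92 ATMG loci and 8963 of 18269 models. Of the chloroplast loci, whose names begin with ATCG, 65 of 70 were above 0, with a median of 0.09. In 23 of 43 members every asil1-1 library lay above every Col-0 library, 53.5%, against 7.13% of all models and 43.5% of ATMG loci. In 0 members every asil1-1 library lay below, against 6.62% of all models. The seed coat markers also lay higher, at 244 to 307 CPM in asil1-1, against 184 to 239 CPM in Col-0, and their part was not tested. AT2G07708 measured 682, 666 and 644 CPM in asil1-1, against 538, 514 and 539 CPM in Col-0. AT2G07671 measured 418, 456 and 424 CPM in asil1-1, against 348, 350 and 330 CPM in Col-0.

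AT2G07689, of the NADH dehydrogenase 2 gene, had the lowest p. It measured 27, 27.4 and 27.5 CPM in asil1-1, against 16.6, 15.3 and 21.2 CPM in Col-0, a log2 difference of 0.63 ± 0.16 with an adjusted p of 0.694 in edgeR's test. It passed without the 2 libraries that stand apart. The ATMG loci together took 5.34% to 5.61% of counts in asil1-1, against 4.78% to 4.98% in Col-0, and totals were 5.69 to 8.05 M in asil1-1, against 4.32 to 5.77 M in Col-0. Their part in these values was not tested. Members are not replicates, since they were measured in the same libraries.

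In neither asil2 single mutant did a member pass the test. In asil2-1 against Col-0, 0 of 43 passed in edgeR's test and in DESeq2, none at an unadjusted p under 0.05, against 316 of 18269 models, with 0.0109% of all models called, all lower. The median was -0.12, and 13 members lay below in every library, 30.2%, against 6.04% of all models and 9.78% of ATMG loci. There was 1 member above in every library, against 5.8% of all models and 3.26% of ATMG loci. AT2G07734 measured 172, 171 and 169 CPM in asil2-1, against 187, 184 and 189 CPM in Col-0. In asil2-2 against Ler, 0 of 43 passed in either test and none at an unadjusted p under 0.05, against 471 of 18269 models, with 0.0712% of all models called, 0.0438% higher and 0.0274% lower. The median was -0.02, and 4 members lay below in every library, 9.3%, against 5.75% of all models and 5.43% of ATMG loci. There was 1 member above in every library, against 7.29% of all models and 10.9% of ATMG loci.

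In asil1-1 asil2-1 against Col-0, 0 of 43 members passed in edgeR's test, with 0.0219% of all models called, 0.0109% in each direction. There were 8 of 43 at an unadjusted p under 0.05, against 2942 of 18269 models, and DESeq2 called 3 falls, against 273 models called. These were AT2G07708, AT2G07734 and AT2G07785. AT2G07734 measured 107, 132 and 124 CPM in asil1-1 asil2-1, against 187, 184 and 189 CPM in Col-0, a log2 difference of -0.62 ± 0.12 with an adjusted p of 0.0918. AT2G07708 measured 323, 434 and 361 CPM in asil1-1 asil2-1, against 538, 514 and 539 CPM in Col-0, a difference of -0.51 ± 0.12 with an adjusted p of 0.132. AT2G07785 measured 147, 193 and 174 CPM in asil1-1 asil2-1, against 219, 219 and 235 CPM in Col-0, a difference of -0.39 ± 0.11 with an adjusted p of 0.173, all in edgeR's test. The double mutant lay below Col-0 in every library in 7 members, 16.3%, against 9.84% of all models and 18.5% of ATMG loci. It lay above in 0 members, against 8.36% of all models and 3.26% of ATMG loci. AT2G07734 was called as a fall without the 2 libraries that stand apart. The comparisons of mutants with Col-0 share its 3 libraries, so their values are not independent.

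A list of 14 nuclear genes, mostly of mitochondrial RNA synthesis and decay and of DNA upkeep, was tested in the 8 comparisons. mtPNPase (AT5G14580), a nuclease that trims and degrades mitochondrial RNA, passed in asil1-1 against Col-0. Its mean was 173 CPM with an SD of 16.2 in asil1-1, against 82.8 CPM with an SD of 9 in Col-0, 3 libraries each, and it rose by 1.06 ± 0.19 with an adjusted p of 0.0492 in edgeR's test. The other 13 genes, among them the polymerases RPOTm and RPOTmp and the DNA upkeep gene MSH1, passed in none. The list's median log2 fold change lay between -0.29 and 0.06 over the comparisons, and was -0.07 in asil1-1.

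The genes whose levels were most like those of the 3 highest members were described by Pearson's r of log2 CPM over 21 libraries. For AT2G07708 they were ATMG00580, ATMG00510 and ATMG00060, with r of 0.925, 0.919 and 0.912, and 0.882, 0.922 and 0.916 over the 19 libraries that do not stand apart. For AT2G07727 they were ATMG00516, AT2G32730 and AT5G47010, with r of 0.948, 0.932 and 0.930. Without the libraries that stand apart these were 0.786, 0.561 and 0.533. For AT2G07687 they were ATCG00330, AT1G42480 and AT2G27285, with r of 0.974, 0.939 and 0.935, and 0.789, 0.534 and 0.647 without them. The likeness of AT2G07727 and AT2G07687 to nuclear genes thus rested largely on 2 libraries, while that of AT2G07708 to mitochondrial loci did not. The 3 most abundant mitochondrial loci were ATMG00030 with 28234 CPM, ATMG01360 with 3463 CPM and ATMG00090 with 3032 CPM on average.

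The interval also holds 6 loci whose numbers end in 0. AT2G07820 and AT2G07830 lie inside the insertion, and the other 4 lie beyond its end with no mitochondrial window. Of the 6, 4 were tested. AT2G07680, a multidrug resistance-associated protein outside the insertion, rose by 1.15 ± 0.30 in asil1-1 asil2-2 against Col-0, with an adjusted p of 0.0419 in edgeR's test, and by 1.36 ± 0.30 in asil2-2 against asil2-1, with an adjusted p of 0.0071. In Ler against Col-0 its difference was 0.94 ± 0.29, with an adjusted p of 0.0709. None of the other 3 passed in any comparison.

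The 3 members that did not pass the filter had almost no reads. AT2G07695, annotated as cytochrome c oxidase subunit II-like, had 9 reads in all 21 libraries, while its counterpart ATMG01280 had 617. AT2G07722, an uncharacterized protein, and AT2G07777 had 1 read each.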

How the data were processed

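Read counts per gene model were deposited, 1 table per library, and were used as given. The submitters' processing notes list Bowtie 0.12.7, edgeR 3.0.8 and TAIR10. No source used here states the strand, the mitochondrial sequence, or how reads with several matches were handled.

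Members, lists, comparisons and alternatives were chosen with earlier results of these data known. All 21 libraries entered 1 edgeR 4.0.16 fit (R 4.3.3) with 7 groups, after filterByExpr (minimum count 10, minimum total 15) and TMM scaling, and p-values were Benjamini-Hochberg adjusted over 18269 models. Each standard error is the absolute log2 fold change over the root of its F statistic. The fit was tested on simulated data. Over the comparisons it recovered 48% to 62% of 2-fold changes and 91% to 99% of 4-fold changes. Changes smaller than 2-fold were not simulated, so smaller shifts may go uncalled.

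Exon windows of 50 bases were matched exactly to TAIR10.1, whose annotation also gave coordinates and sequences (RefSeq). ATMG loci had no coordinates there, so counterparts are the best protein matches in its notes, in place of a planned sequence match. By the naming rule, any member that passed the filter could be named. Values by library were given for the 12 highest by mean CPM and every member called, and the 3 members outside the filter were named by total count. ATMG loci were named where paired with a named member or among the 3 highest. Values by library for AT2G07681, AT2G07689 and AT2G07773, and the choice of ATMG00910 and ATMG01090, were added after their values were seen. Pairs of libraries were checked, and 0 were identical. Floors cover counting error only. Further computing used Python 3.11.15, pandas 2.3.3, numpy 2.4.6 and matplotlib 3.10.9.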

Additional observations from a re-analysis of the deposited data

How the results depend on the processing

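Each comparison was refitted in turn with RLE in place of TMM, without the low-count filter, with library sizes from nuclear models, and with a replicate block. Further refits used DESeq2 1.42.0, only the compared groups, or all libraries but the 2 that stand apart. Each of the 6 libraries of the compared groups, and no other, was also left out singly. The absence of AT2G07667 and AT2G07739 in Landsberg erecta passed in all 13 alternatives for both Ler against Col-0 and asil2-2 against asil2-1. The 4 calls of Ler against Col-0 became 2 with no filter, 9 with only the compared groups, 10 without the 2 libraries that stand apart and 2 to 3 with 1 library left out, where 5 of the 6 settings called only AT2G07667 and AT2G07739. The 3 calls of asil2-2 against asil2-1 became 5 with DESeq2, 7 with only the compared groups and 9 without the 2 libraries, and stayed at 3 with 1 library left out. The 4 calls of asil1-1 asil2-2 against Ler became 2 with only the compared groups, 7 without the 2 libraries and 3 to 4 with 1 left out. In asil1-1 asil2-1 against Col-0, 0 became 3 with DESeq2, 1 without the 2 libraries and 0 to 2 with 1 left out, where AT2G07734 was called without replicate 2 or replicate 3. In asil1-1 asil2-2 against Col-0, 0 became 1 with DESeq2, and in asil1-1 against Col-0, 0 became 1 without the 2 libraries. The counts of asil2-1 against Col-0 and asil2-2 against Ler were 0 throughout. The cause was not tested. The replicate block changed none of the 8 counts, 4 for Ler against Col-0, 3 for asil2-2 against asil2-1, 4 for asil1-1 asil2-2 against Ler and 0 for the others. Same-numbered libraries deviated together with correlations of -0.12 to 0.33, and in no comparison were all 3 over 0.1. This check cannot show whether libraries of the same number were handled together. Fold changes were refitted for the called members only, AT2G07667, AT2G07671, AT2G07734, AT2G07739 and AT2G07827 in the comparisons that called them, and none of these reversed. Library depth limits AT2G07667 and AT2G07739, whose floor of 3 counts was 0.19 CPM over Ler.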
